A study of Arabidopsis thaliana with 8 samples.

Results

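A list of 69 genes was read at low to moderate levels in all wild-type seedling libraries and was close to the limit of detection in libraries of the *ubp5* mutant. The members were chosen by their counts in these same libraries. A gene entered with at least 4 counts in each of the 4 Col-0 libraries and at most 4 counts summed over the 4 *ubp5* libraries. Of the 37336 gene ids counted, 16939 met the Col-0 limit, and 69 of these (0.407%) also met the *ubp5* limit. 2 more ids met both limits and were left out under the list's definition. The values that chose the members are therefore given as a description, without a test.

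The study compared the transcriptomes of whole *Arabidopsis thaliana* seedlings of the accession Col-0 and of *ubp5*, a single CRISPR/Cas9 deletion line made in the Col-0 background. Both genotypes were grown on MS agar in long days and were collected 12 days after germination, with 4 biological replicates each and no other treatment. The assay was 3' RNA-seq, which reads the poly(A) end of a transcript and counts each molecule once by a unique molecular identifier. Library totals were 2572842 to 2997743 counts in Col-0 (median 2687134) and 1440510 to 2595285 in *ubp5* (median 2100966), so the *ubp5* depth was 0.753 of the Col-0 depth. On log2(CPM + 1), where CPM stands for the count scaled to a library total of 1000000, each library correlated with the others of its genotype at a mean of 0.945 to 0.969 over 15649 genes. The lowest of these values was that of Col-0 replicate 1. Counts of *UBP5* itself were 47, 57, 32 and 51 in wild type and 14, 13, 6 and 16 in the mutant (log2 fold change −1.53, SE 0.25, edgeR adjusted p = 0.00236). Whether the remaining 3' tags lie outside the deleted stretch was not analysed here.

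UBP5 is a ubiquitin-specific protease, an enzyme that removes ubiquitin from proteins, and the study examined it as an eraser of monoubiquitin on a core histone. That histone mark is placed by Polycomb repressive complex 1 and is associated with low transcription, together with the histone methylation placed by Polycomb repressive complex 2. Short sequence repeats, among them the telobox and GAGA repeats, have been related to the recruitment of Polycomb repressive complex 2 in plants.

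Promoter sequences are shown for the phosphate members with a searched motif and for the members with a telobox or GAGA repeat, because the list was otherwise chosen on counts alone. The 250 bases before the annotated start of each member were read from the RefSeq assembly TAIR10.1. The study's own motif search also took in bases further upstream and bases after the start, which were not searched here. The telobox, searched as AAACCCTA on both strands, was present in 1 of 69 members (1.45%), against 3.52% of the genes that met the Col-0 limit and 4.74% of all genes with a window. The GAGA repeat, searched as GAGAGAGA on both strands, was also present in 1 of 69 (1.45%), against 4.36% and 4.67%. The P1BS element, searched as GNATATNC, which reads the same on both strands, was chosen after the phosphate genes among the members had been seen. P1BS is the sequence bound by PHR1, a regulator of the phosphate starvation response. It was present in 8 of 69 members (11.6%), against 5.57% and 5.24%, and in 3 of the 4 members with a role in phosphate supply. The other 5 members that carry it have no role in phosphate supply assigned here: AT3G04040, AT3G21360, AT5G46871, *AGL42* and *SSN2*, where it lies inside the gene AT4G33920. A match is a description of the letters and not a measured binding site. The windows below are written 5′ to 3′ on the strand of the gene, with the motif in capitals. The P1BS windows are those of the phosphate genes *SPX3* (2 sites, chr2:18606171-18606230 and chr2:18606294-18606353, plus strand), *PAP24* (chr4:12814576-12814635, minus strand) and *GDPD6* (2 sites, chr5:2576931-2576990 and chr5:2576872-2576931, minus strand). The motifs start 213 and 90 bases before the start of *SPX3*, 153 before that of *PAP24*, and 145 and 86 before that of *GDPD6*. The telobox window lies at chr5:23931228-23931267 (plus strand) and its motif starts 70 bases before AT5G59330. The GAGA window lies at chr4:18267781-18267820 (plus strand) and its motif starts 250 bases before AT4G39235.
SPX3, distal site: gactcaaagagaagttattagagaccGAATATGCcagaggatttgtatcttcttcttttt
SPX3, proximal site: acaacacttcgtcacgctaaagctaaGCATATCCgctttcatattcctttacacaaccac
PAP24: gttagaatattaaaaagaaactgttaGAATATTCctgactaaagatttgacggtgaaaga
GDPD6, distal site: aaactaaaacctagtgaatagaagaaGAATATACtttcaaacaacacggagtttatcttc
GDPD6, proximal site: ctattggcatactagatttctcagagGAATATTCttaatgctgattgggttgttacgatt
AT5G59330, telobox: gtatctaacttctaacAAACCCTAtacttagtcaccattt
AT4G39235, GAGA repeat: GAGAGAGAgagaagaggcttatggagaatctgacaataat

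The members were mostly genes of low level. Their mean Col-0 level ran from 1.65 to 42.2 CPM with a median of 3.64 CPM, and 52 of the 69 were under 5 CPM while 8 reached 10 CPM or more. Ranked among the 23411 ids with a count in Col-0, they lay between percentile 23.0 and percentile 82.2. Single Col-0 counts ranged from 4 to 149 with a median of 9. In *ubp5*, 141 of the 276 member values were 0, 100 were 1, 30 were 2 and 5 were 3. The members together took 396, 364, 381 and 316 CPM in Col-0 replicates 1 to 4, and 19.9, 22.7, 22.9 and 19.6 CPM in *ubp5* replicates 1 to 4. This gap follows from the limits that chose them. Only 4 members had no count in any *ubp5* library, and 65 had between 1 and 4, so most were read at a trace level and not at 0. Whether these few counts came from transcripts of the members was not tested. In RNA from whole seedlings, fewer cells of a type and less RNA per cell cannot be told apart.

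**Figure D1:**
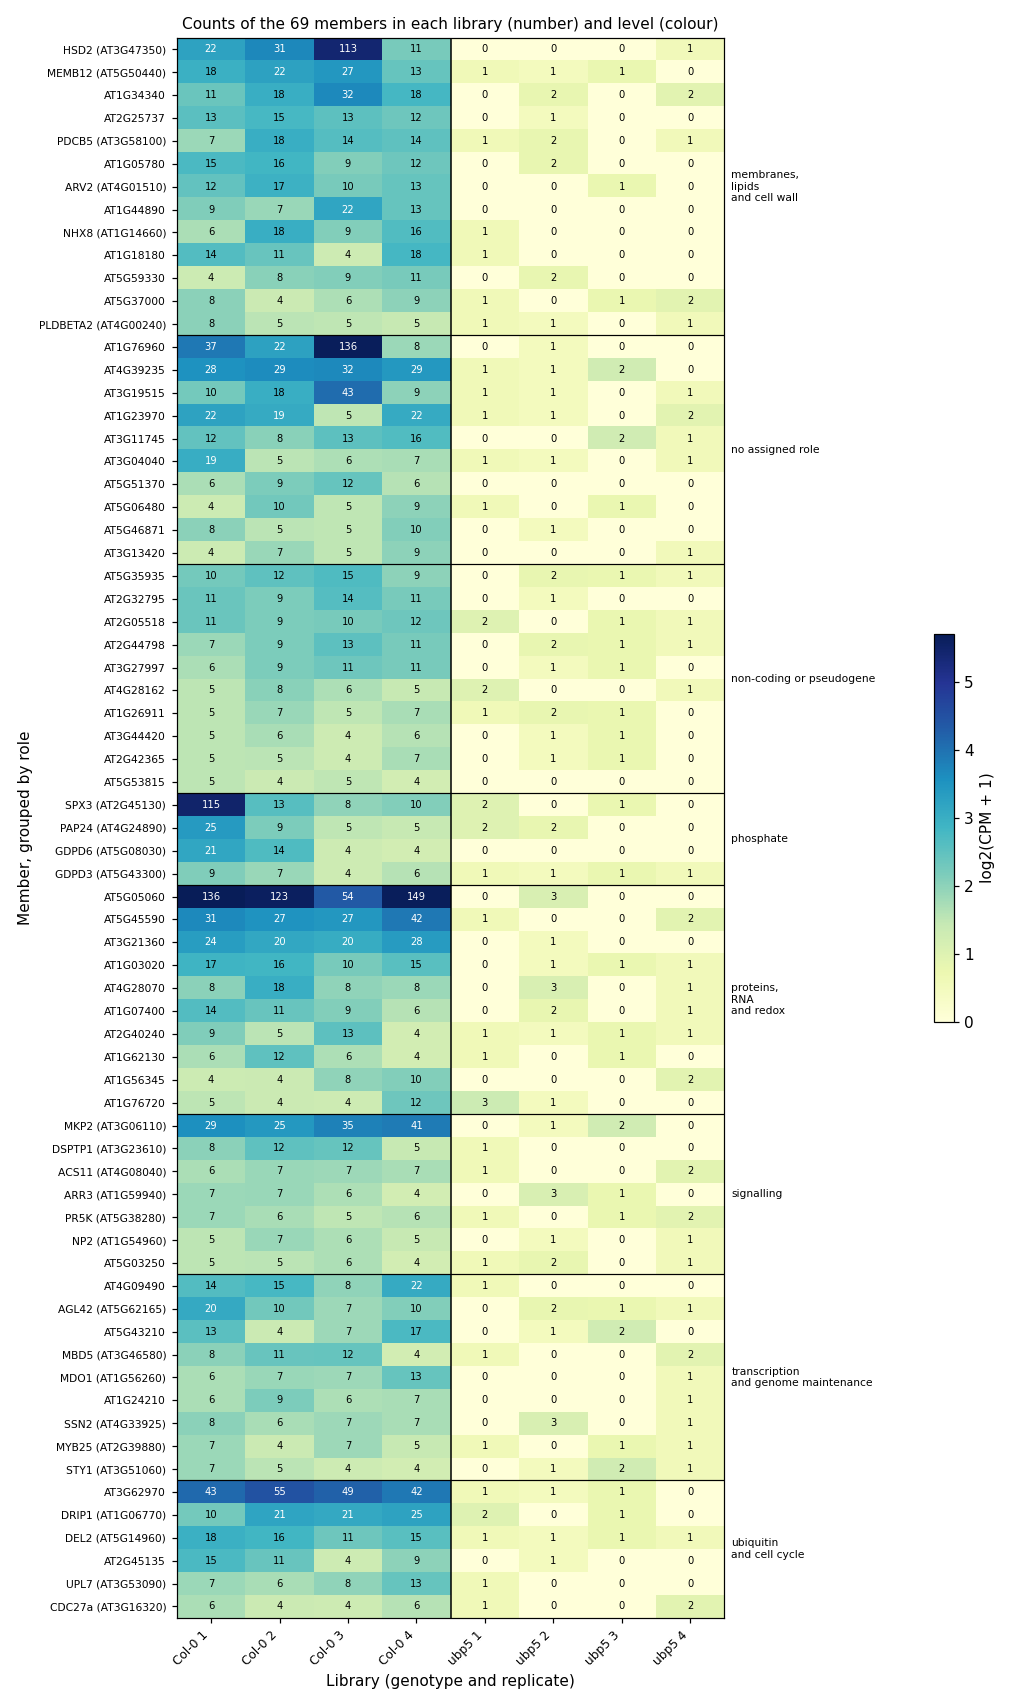
Counts of the 69 members (number in each cell) in the 4 Col-0 and 4 *ubp5* libraries (columns), with colour giving log2(CPM + 1) and rows grouped by role. Col-0 counts run from 4 to 149 and no *ubp5* count exceeds 3, where the limits of the list allow a sum of 4. *SPX3*, *HSD2* and AT1G76960 vary most between Col-0 libraries.

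The ratio of Col-0 to *ubp5* was taken from counts summed over the libraries of each genotype and divided by their depth. Its exact 95% binomial interval covers counting error only. The same counts chose the members, so a ratio above 1 was set by the limits and the intervals describe precision and test nothing. Over the 65 members with a *ubp5* count it ran from 3.76 to 152.8 with a median of 11.3. For the 4 members without a *ubp5* count the ratio was bounded with a floor of 3 counts over the genotype. The bounds were at least 12.8-fold higher in Col-0 for AT1G44890, an inner membrane OXA1-like protein, and 10.8-fold for *GDPD6*. They were 8.28-fold for AT5G51370, an RNI-like protein, and 4.52-fold for the pseudogene AT5G53815. The widest intervals belong to members with 1 *ubp5* count.

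**Figure D2:**
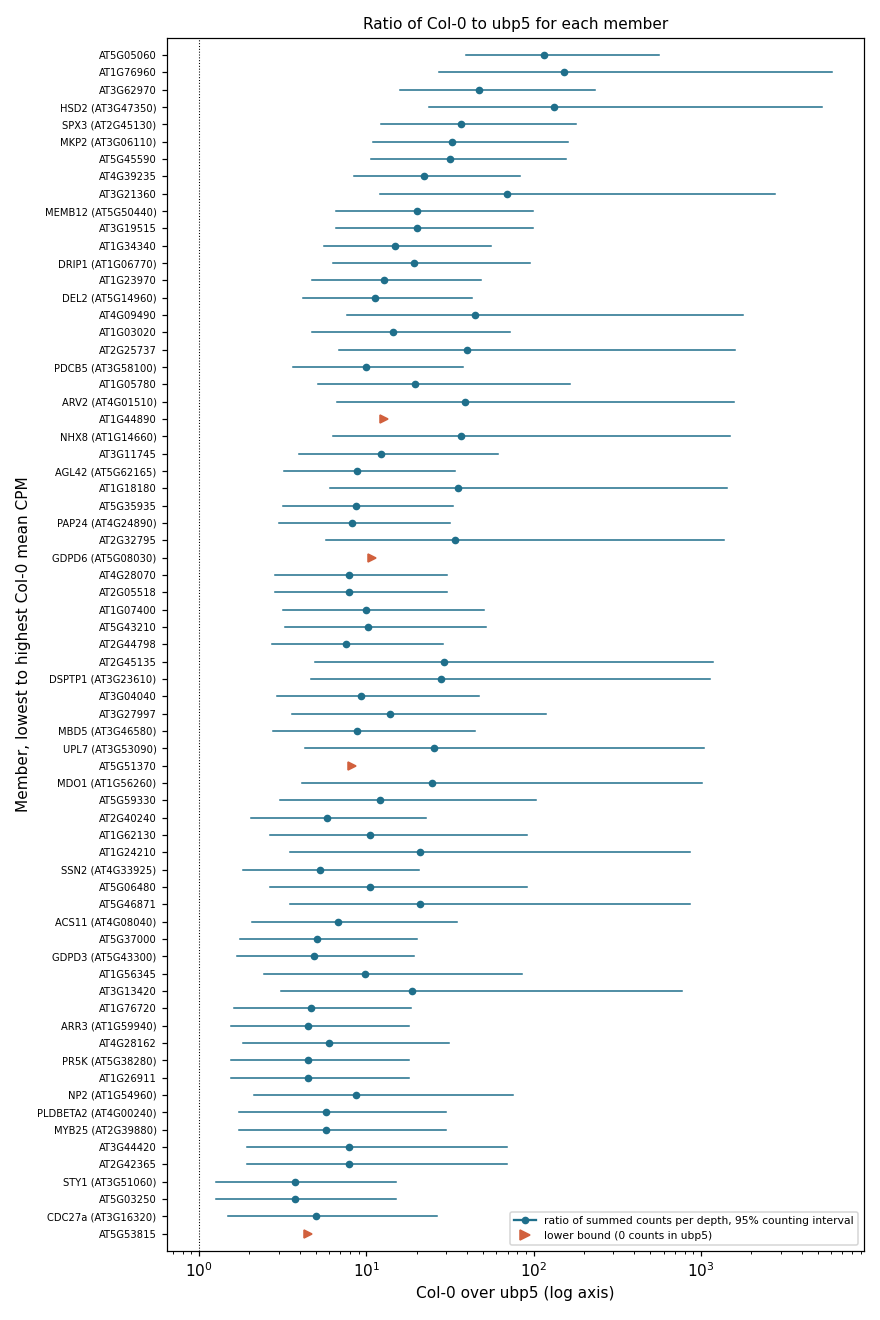
Ratio of Col-0 to *ubp5* for each member (horizontal log axis), sorted by mean Col-0 level from bottom to top; points are ratios of depth-scaled summed counts with exact 95% counting intervals, and triangles are lower bounds for the 4 members at 0 in *ubp5*. The ratios run from 3.76 to 152.8, and a ratio above 1 follows from the limits of the list.

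The limits cut through a continuum of low counts. 21 members had a *ubp5* sum of exactly 4, while 19 ids with enough Col-0 counts lay just outside with a sum of 5, among them *RAD51D* and *CYCA1;2*. Likewise 22 members had a lowest Col-0 count of 4, and 37 ids missed the list with a lowest count of 3, among them *AGL14*, *AGL15* and *PHT1;2*. The lowest members of the list, such as *STY1* with 7, 5, 4 and 4 counts in Col-0 and 0, 1, 2 and 1 in *ubp5*, had a ratio of 3.76 (interval 1.26 to 15.1). When counts were scaled to the mean library total before the limits were applied, 27 ids qualified, and all 27 were among the 69. The opposite pattern, at least 4 counts in every *ubp5* library and at most 4 summed over Col-0, held for 21 of 15883 ids (0.132%), and again for 21 ids after scaling.

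The expression filter of the fit across all genes was passed by 10 members, and 59 were not tested. The filter asks for enough counts in several libraries, so *SPX3*, *HSD2* and AT1G76960, which were low in some Col-0 libraries, did not pass despite means of 13.7 to 18.7 CPM. All 10 were called lower in *ubp5*, where a gene is called if edgeR gives it an adjusted p under 0.05 together with an absolute log2 fold change no smaller than 1. Over all 15649 genes tested, 2.93% were called lower and 1.91% higher. A member could pass the filter only through its Col-0 counts and then had to differ, so nothing is read from these 10 calls.

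Genes of phosphate supply gave 4 members, and all 4 were highest in Col-0 replicate 1. *SPX3*, which encodes an SPX domain regulator of the phosphate starvation response, had 115, 13, 8 and 10 counts in Col-0 and 2, 0, 1 and 0 in *ubp5*. *PAP24*, a purple acid phosphatase, had 25, 9, 5 and 5 against 2, 2, 0 and 0. *GDPD6*, a glycerophosphodiester phosphodiesterase that acts on lipid breakdown products, had 21, 14, 4 and 4 against 0 in all *ubp5* libraries. Col-0 replicate 1 was thus far above the other wild-type libraries for *SPX3* and well above them for *PAP24*. *GDPD3*, of the same family as *GDPD6*, was flatter at 9, 7, 4 and 6 counts against 1 in each *ubp5* library. Without Col-0 replicate 1 the mean level of *SPX3* fell from 13.7 to 3.77 CPM and its ratio from 36.6 to 10.2 (interval 3.20 to 52.4). On the same libraries the ratio of *PAP24* was 4.71 (1.57 to 19.0), that of *GDPD3* was 4.22 (1.37 to 17.2), and the bound for *GDPD6* was at least 7.27-fold. The part of this library in the level of these members was not tested beyond these values.

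The closest relatives of these phosphate genes, which the limits of the list did not touch, were measured at higher depth. *SPX1*, 46.5% identical in protein to *SPX3* and an inhibitor of PHR1 when phosphate is plentiful, had 677, 182, 177 and 144 counts in Col-0 and 51, 44, 20 and 49 in *ubp5*. It was called lower (log2 fold change −2.47, SE 0.49, edgeR adjusted p = 0.00654), and at −1.64 without Col-0 replicate 1. *SRG3*, a glycerophosphodiester phosphodiesterase 55.2% identical to *GDPD3*, had 429, 228, 299 and 207 counts against 77, 103, 49 and 63. It was also called lower (−1.61, SE 0.23, adjusted p = 0.000941), and at −1.35 without Col-0 replicate 1. The genotypes did not overlap for either relative, which was also the case, for 9.07% of all genes tested with *ubp5* lower and for 8.05% with *ubp5* higher. *PAP27* (77.9% identical to *PAP24*) and *GDPD5* (75.1% identical to *GDPD6*) were not called, with log2 fold changes of 0.29 (SE 0.13, adjusted p = 0.186) and 0.30 (SE 0.22, adjusted p = 0.425).

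**Figure D3:**
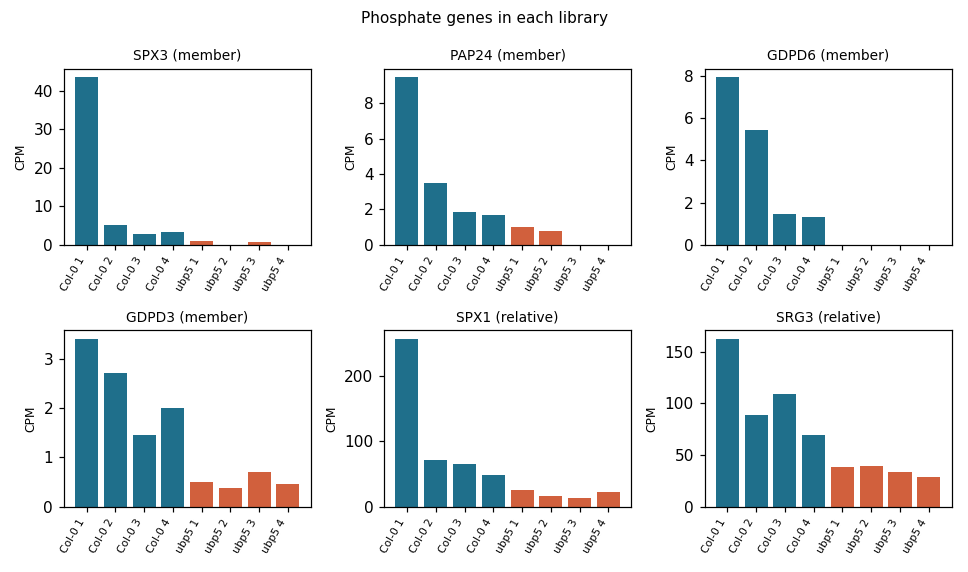
CPM of the 4 phosphate members and of 2 relatives, *SPX1* and *SRG3*, in each library (bars, Col-0 blue and *ubp5* orange; each panel has its own axis from 0). Col-0 replicate 1 is the highest library in all 6 panels; the gap between genotypes was set by the limits of the list in the 4 members.

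The ubiquitin and cell cycle group held 6 members. AT3G62970, a zinc finger protein with a RING domain of the kind found in ubiquitin ligases, was the steadiest of them at 43, 55, 49 and 42 counts in Col-0 (17.4 ± 3.10 CPM, SD, n = 4) and 1, 1, 1 and 0 in *ubp5*. *DRIP1*, a RING-type ubiquitin ligase of the drought-response factor DREB2A, had 10, 21, 21 and 25 counts against 2, 0, 1 and 0. *DEL2*, an atypical E2F-like regulator of the cell cycle, had 18, 16, 11 and 15 counts against 1 in each *ubp5* library. AT2G45135 (RING/U-box), *UPL7* (a HECT-type ubiquitin ligase) and *CDC27a* (a subunit of the anaphase-promoting complex) were lower, with Col-0 means of 3.61, 3.06 and 1.82 CPM. The relatives divided. *DRIP2*, 68.8% identical to *DRIP1* and its partner in the turnover of DREB2A, had 22, 14, 20 and 28 counts in Col-0 and 4, 4, 1 and 4 in *ubp5*. It was called lower (log2 fold change −2.26, SE 0.34, edgeR adjusted p = 0.00118). In contrast, *HBT*, the other CDC27 gene (47.8% identical to *CDC27a*), had a log2 fold change of −0.22 (SE 0.18, adjusted p = 0.474). AT5G18650, 62.6% identical to AT3G62970, had 0.02 (SE 0.14, adjusted p = 0.948) at mean levels of 108 and 110 CPM. Neither of these 2 was called.

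Transcription and genome maintenance gave 9 members, all at 5.35 CPM or less. The highest was AT4G09490, an RNase H-like protein, at 14, 15, 8 and 22 counts against 1, 0, 0 and 0. *AGL42*, a MADS-box factor, had 20, 10, 7 and 10 counts in Col-0 and 0, 2, 1 and 1 in *ubp5*. *MBD5*, a methyl-CpG-binding protein, had 8, 11, 12 and 4 against 1, 0, 0 and 2. *MDO1*, a telomere-capping subunit, had 6, 7, 7 and 13 against a single count in *ubp5* replicate 4. The others were *STY1* (an activator of auxin synthesis), *MYB25*, *SSN2* (a SWIM zinc finger protein that acts in recombination), AT5G43210 (an excinuclease domain protein) and AT1G24210 (a paired amphipathic helix protein). Relatives with a test were not called. *AGL20*, the flowering-time MADS-box gene closest to *AGL42*, had a log2 fold change of −0.37 (SE 0.14, adjusted p = 0.110), and *MBD6* had −0.47 (SE 0.26, adjusted p = 0.292). *MYB109* had −0.67 (SE 0.45, adjusted p = 0.382). *SHI*, the gene closest to *STY1*, was not tested and had 9, 6, 5 and 6 counts in Col-0 and 7, 19, 7 and 12 in *ubp5*.

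Signalling gave 7 members, and they included the 1 pair of close relatives within the list. *MKP2* and *DSPTP1* encode dual-specificity phosphatases, enzymes that switch off mitogen-activated protein kinases, and their proteins were 64.0% identical over 139 residues. *MKP2* had 29, 25, 35 and 41 counts in Col-0 (11.8 ± 1.78 CPM) and 0, 1, 2 and 0 in *ubp5*. *DSPTP1* had 8, 12, 12 and 5 against 1, 0, 0 and 0. Their nearest relative outside the list, *PHS1*, was 35.4% and 33.9% identical and was not called (log2 fold change −0.45, SE 0.22, adjusted p = 0.210). The other members were *ACS11*, an enzyme of ethylene synthesis, *ARR3*, a cytokinin response regulator, the kinase *NP2*, the receptor kinase *PR5K*, and AT5G03250 of the phototropic-response NPH3 family. These 5 lay between 1.84 and 2.47 CPM in Col-0, and *NP2* and *PR5K* shared 29.7% identity over a kinase-length alignment of 283 residues. *ARR4*, the gene closest to *ARR3*, was far more abundant (57.7 against 42.1 CPM) and was not called (−0.48, SE 0.19, adjusted p = 0.129).

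Membranes, lipids and the cell wall formed the largest group with 13 members. *HSD2*, a hydroxysteroid dehydrogenase, had 22, 31, 113 and 11 counts in Col-0 and a single count in *ubp5*. Col-0 replicate 3 alone held most of its counts, and without that library its mean fell from 16.3 to 8.02 CPM and its ratio from 133 to 64.2 (interval 11.1 to 2576). *MEMB12*, a SNARE protein of the Golgi, had 18, 22, 27 and 13 against 1, 1, 1 and 0. AT1G34340, an alpha/beta-hydrolase, had 11, 18, 32 and 18 against 0, 2, 0 and 2. *ARV2* (a lipid-homeostasis protein of the ARV family), *NHX8* (a cation/proton exchanger), *PDCB5* (a callose-binding protein of plasmodesmata) and *PLDBETA2* (a phospholipase D) had means of 4.79, 4.47, 4.86 and 2.12 CPM. No tested relative of these named members was called. *HSD3*, 83.8% identical to *HSD2*, was not tested and had 5, 5, 10 and 7 counts in Col-0 and 0, 3, 1 and 4 in *ubp5*. *MEMB11*, 88.9% identical to *MEMB12*, had 104, 105, 139 and 105 counts against 93, 126, 66 and 96, a log2 fold change of 0.14 (SE 0.13, adjusted p = 0.562). *ARV1* had 0.04 (SE 0.18, adjusted p = 0.918), *SOS1* had −0.28 (SE 0.25, adjusted p = 0.529) and *PLDBETA1* had −0.37 (SE 0.16, adjusted p = 0.170). The lipid transfer-like member AT5G59330 was an exception of the other direction. It had 4, 8, 9 and 11 counts in Col-0 and 0, 2, 0 and 0 in *ubp5*, while *LTP4*, 68.5% identical and also among its id neighbours, had 23, 34, 42 and 84 against 128, 107, 25 and 87. *LTP4* was called higher (log2 fold change 1.31, SE 0.36, adjusted p = 0.0360), although the genotypes overlapped, and the call was lost without any 1 of 5 libraries (Col-0 replicates 2 and 3, *ubp5* replicates 1, 2 and 4; adjusted p 0.0690 to 0.115).

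Genes of protein, RNA and redox functions gave 10 members, with the most abundant one of the list among them. AT5G05060, a cystatin/monellin superfamily protein, had 136, 123, 54 and 149 counts in Col-0 (42.2 ± 15.0 CPM) and 0, 3, 0 and 0 in *ubp5*, a ratio of 116 (interval 39.4 to 564). Its closest relative, AT5G05040, was 95.3% identical in protein and had no count in any library. AT5G45590, a ribosomal protein L35, had 31, 27, 27 and 42 against 1, 0, 0 and 2. AT3G21360, a 2-oxoglutarate and iron-dependent oxygenase, had 24, 20, 20 and 28 against a single count. AT1G03020, a thioredoxin superfamily protein, had 17, 16, 10 and 15 against 0, 1, 1 and 1, and the remaining 6, including the chaperone AT1G07400 and the ATPases AT4G28070 and AT1G62130, had means of 2.23 to 3.91 CPM. AT1G59860, 91.1% identical to AT1G07400, was itself low, with 3, 1, 4 and 2 counts in Col-0 and 0 in all *ubp5* libraries.

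10 members were protein-coding genes without an assigned role. AT1G76960 had 37, 22, 136 and 8 counts in Col-0 and 0, 1, 0 and 0 in *ubp5*, so Col-0 replicate 3 held most of its counts. Without that library its mean fell from 18.7 to 8.41 CPM and its ratio from 153 to 67.2 (interval 11.7 to 2695). AT4G39235 was the steadiest of the abundant members at 28, 29, 32 and 29 counts (coefficient of variation 8.16%) against 1, 1, 2 and 0. Its relative AT3G05570 had a log2 fold change of −0.59 (SE 0.21, adjusted p = 0.0905). AT3G19515, annotated as an apoptosis inhibitor, had 10, 18, 43 and 9 counts against 1, 1, 0 and 1. AT3G04040 had 19, 5, 6 and 7 against 1, 1, 0 and 1, and its relative AT5G18250 was not called (0.35, SE 0.16, adjusted p = 0.194).

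The clearest id neighbourhood was that of AT1G23970, a member with a DUF626 domain on chromosome 1. It had 22, 19, 5 and 22 counts in Col-0 and 1, 1, 0 and 2 in *ubp5*. The nearest tested ids below it, AT1G23950 and AT1G23960, carry the same domain and were called lower. AT1G23950 had 69, 56, 48 and 66 counts against 3, 9, 4 and 10 (log2 fold change −2.79, SE 0.26, edgeR adjusted p = 4.46e-05). AT1G23960 had 139, 141, 164 and 179 against 18, 24, 11 and 11 (−2.88, SE 0.17, adjusted p = 1.92e-06). The id before them, AT1G23935, was too low for the filter and had 17, 25, 8 and 20 counts against 2, 6, 2 and 2. It is also the closest relative of the member AT3G19515 on chromosome 3 (38.7% identity over 561 residues). The genotypes did not overlap in AT1G23935, AT1G23950 or AT1G23960, beside 9.07% of all genes tested. They did not overlap in AT1G23970 either, which the limits of the list favoured. The 4 genes lie between 8461757 and 8483875 on chromosome 1 of TAIR10.1. The next gene on the other side, AT1G23980 (RING/U-box), had 10, 9, 7 and 5 counts in Col-0 and 11, 6, 5 and 1 in *ubp5*, and its genotypes overlapped. The last 500 bases of AT1G23970 and AT1G23950 shared a stretch of 438 bases at 96.1% identity, so a read of 55 bases that covers no difference would not have been counted for either gene.

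**Figure D4:**
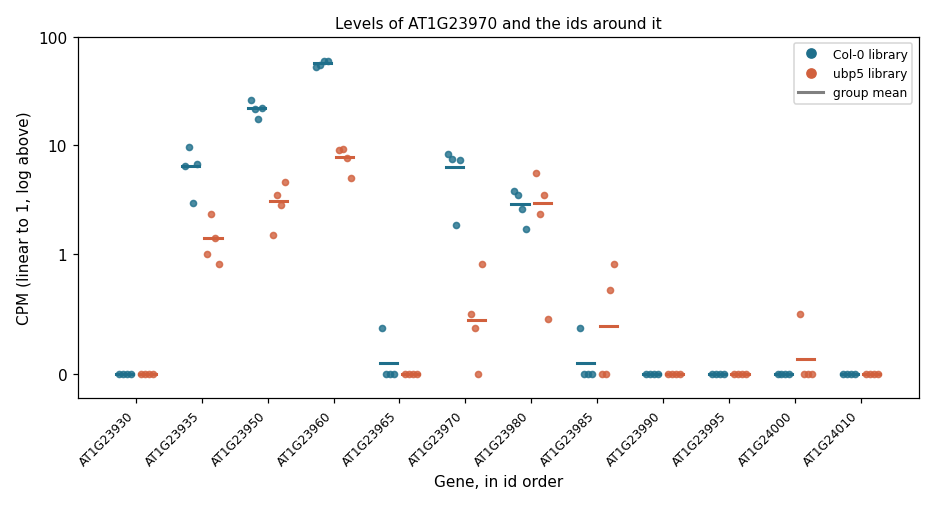
CPM of 12 ids from AT1G23930 to AT1G24010 in id order (points are libraries, bars are means of 4; the axis is linear to 1 CPM and logarithmic above). Col-0 lies above *ubp5* without overlap in AT1G23935, AT1G23950 and AT1G23960, and in the member AT1G23970, where the limits of the list favour it. AT1G23980 overlaps, and the remaining ids have at most 2 counts in any library.

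Within the list, id neighbours were rare. Only *SPX3* and AT2G45135 were next to each other, and no other members lay within 5 ids. Within 10 ids there were also *MDO1* with AT1G56345 and AT5G43210 with *GDPD3*. The members were spread over the 5 chromosomes as 18, 9, 16, 9 and 17, close to the shares of the genes that met the Col-0 limit (26.1% against 26.3% on chromosome 1, 23.2% against 19.8% on chromosome 3).

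The 2 nearest tested ids on each side of every member gave 270 neighbours. Of these, 11 (4.07%) were called lower and 8 higher, beside 2.93% and 1.91% of all genes tested. Their median log2 fold change was −0.01, equal to that of all tested genes. The 2 DUF626 genes above were among those called lower. *RTH*, a homologue of a regulator of ethylene receptors and a neighbour of *STY1*, had 43, 50, 41 and 56 counts in Col-0 and 3, 6, 1 and 5 in *ubp5* (log2 fold change −3.24, SE 0.28, adjusted p = 2.37e-05). The glycine-rich protein genes AT2G05510 and *GRP9*, beside the non-coding member AT2G05518, fell by 2.10 (SE 0.20, adjusted p = 4.57e-05) and by 1.34 (SE 0.19, adjusted p = 0.00095) on the log2 scale. *FOLB1*, an enzyme of folate synthesis, had 11, 21, 21 and 21 counts against 1, 3, 5 and 0 (−2.57, SE 0.55, adjusted p = 0.0108). Its log2 fold change was −3.44 without *ubp5* replicate 3 and −2.13 without *ubp5* replicate 4. *FOLB1* ends 182 bases before the member AT3G11745 on the same strand, and the part of read-through in the counts of AT3G11745 was not tested.

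The other neighbours called lower were AT1G54850, the histone methyltransferase gene *ASHH1* beside AT1G76720, AT1G34350 beside AT1G34340, AT5G14940 beside *DEL2*, and *ASN1*, an asparagine synthase beside *HSD2*. Their log2 fold changes lay between −1.95 and −1.01. AT5G14940 (adjusted p = 0.0480) lost its call without any 1 library, with adjusted p between 0.0584 and 0.118, and had 0.183 with DESeq2. *ASN1* lost it without Col-0 replicate 2 or 3 or *ubp5* replicate 2, where its log2 fold change was −0.96, −0.75 and −0.95, and AT1G34350 lost it without *ubp5* replicate 2 at −0.97. The neighbours called higher included AT4G00250, a storekeeper-related regulator beside *PLDBETA2*, with 1, 1, 3 and 2 counts in Col-0 and 19, 23, 16 and 22 in *ubp5* (log2 fold change 3.82, SE 0.35, adjusted p = 3.68e-05). AT4G07995 and *KNAT1*, a homeobox gene of the shoot meristem, lay on either side of *ACS11* in id order. They were higher by 3.14 (SE 0.41) and 1.46 (SE 0.37). Leaving out 1 library gave 2.89 to 3.85 for AT4G07995. AT1G34315, AT1G76955, AT1G07440, *LTP4* and *ULT1*, a developmental regulator of meristem size, were higher by 1.84, 1.48, 1.17, 1.31 and 1.09. *KNAT1* lost its call without Col-0 replicate 4 or any *ubp5* replicate (adjusted p 0.0512 to 0.0639). *ULT1* lost it without Col-0 replicates 2 or 3 or *ubp5* replicates 1, 3 or 4 (0.0628 to 0.0983). Members beside higher and beside lower neighbours both occurred, and AT1G34340 had 1 of each.

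Families were read through the closest protein of each member outside the list. Of the 59 members with a protein, 47 had a relative, with 46 different relatives at 33.9% to 95.3% identity (median 66.0%). Of these, 32 passed the filter, 4 were called lower (*DRIP2*, *SPX1*, *SRG3* and AT1G23950) and 1 higher (*LTP4*). The 4 make 12.5% of the 32, beside 2.93% of all genes tested. With the 3 best matches of each member in place of 1, 5 of 69 tested relatives (7.25%) were called lower and the median log2 fold change was −0.21. The median log2 fold change of the 32 was −0.33, beside −0.01 over all genes, and 22 were below 0. Relatives were chosen by sequence and not by counts, but they were picked for members known to be lower in *ubp5*, and AT1G23950 shares 3' sequence with its member. 4 relatives had no count in any library.

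**Figure D5:**
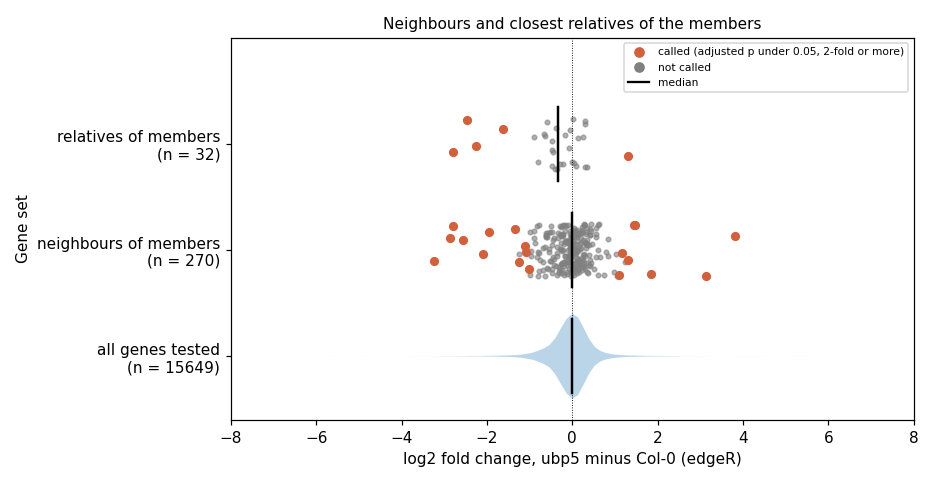
Log2 fold change of *ubp5* against Col-0 for all 15649 genes tested (outline), 270 id neighbours and 32 tested relatives of members (points; orange where called), with the median of each set as a black line. Neighbours centre on −0.01 as all genes do, and relatives have a median of −0.33 with 4 called lower and 1 higher.

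The list also held 10 non-coding genes or pseudogenes, 3 of them long non-coding RNAs, 2 other non-coding RNAs and 5 pseudogenes. Protein-coding genes made up 85.5% of the members and 98.2% of the genes that met the Col-0 limit. All 10 were low, from 1.65 to 4.23 CPM in Col-0. AT2G05518 was the steadiest of all 69 members at 11, 9, 10 and 12 counts (coefficient of variation 8.04%), against 2, 0, 1 and 1 in *ubp5*. AT5G35935, the longest at 6504 bases, had 10, 12, 15 and 9 counts against 0, 2, 1 and 1. Members had a median of 4 exons and a median transcript length of 1423 bases, beside 5 exons and 1756 bases for the genes that met the Col-0 limit. Those genes were not matched to the members for level, for these medians or for the share of protein-coding genes.

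Counts of some members are uncertain for reasons of sequence or position. In 4 members the last 500 bases matched another locus at 95% identity or more over at least a read length. These were AT1G23970, AT1G76720 (100% over 485 bases with AT1G76820), AT3G27997 and AT5G53815. 2 members, AT2G44798 and *SSN2*, overlap a gene on the same strand. On the opposite strand 15 members overlap 16 genes, of which 9 were tested and none was called by edgeR, with 3 at an unadjusted p under 0.05. AT4G39240, opposite AT4G39235, and *GC2*, opposite AT1G18180, had log2 fold changes of −0.97 and −0.96 (edgeR adjusted p = 0.027 and 0.0337). Of the 9, 5 had a log2 fold change below 0. DESeq2 called *BGLU19*, which overlaps AT3G21360, and its counts were higher in *ubp5* (16, 9, 6 and 11, against 1, 4, 5 and 2 in Col-0). For 15 members a same-strand gene ends within 500 bases upstream. Of the 7 such genes that were tested, *FOLB1* alone was called, and it was lower in *ubp5*. Over all genes tested, 2.93% were called lower and 1.91% higher.

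Tissue markers were read in the same libraries. Of the 11 markers that passed the filter edgeR called none, and 5 had an unadjusted p under 0.05. The green tissue genes *RBCS1A*, *CAB2* and *RCA* were lower in *ubp5*, with edgeR adjusted p of 0.0345, 0.0138 and 0.0461. Their log2 fold changes of −0.49, −0.80 and −0.36 were smaller than the limit of a call. DESeq2, which filters less, called 2 others higher, the seed gene *OLEO1* and the flower gene *PI*. The summed level of the 5 green tissue genes did not overlap between genotypes, at 30955 to 42488 CPM in Col-0 and 27063 to 28795 CPM in *ubp5*. As single genes, *CAB1* and *PGK1* of these 5 did overlap. Of all genes tested, 9.07% had *ubp5* below Col-0 without overlap. The 6 root markers summed to 43.9 to 63.7 CPM in Col-0 and 42.8 to 58.8 in *ubp5*. The 4 seed genes summed to 15.3 to 40.4 CPM and 17.8 to 130 CPM. The 5 flower genes summed to 14.0 to 17.4 CPM and 15.9 to 29.7 CPM, and the 2 pollen genes were at or near 0 in every library. The part of tissue composition in the levels of the members was not tested.

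Variation among the wild-type libraries differed widely between members. The coefficient of variation in Col-0 ran from 8.04% to 145% with a median of 30.8%, was under 20% in 16 members and over 100% in 3. The 3 were *SPX3*, highest in replicate 1, and *HSD2* and AT1G76960, both highest in replicate 3. Over all members the highest Col-0 library was replicate 1, 2, 3 and 4 in 21, 17, 15 and 16 cases.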

How the data were processed

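Total RNA of 4 Col-0 and 4 *ubp5* seedling samples was read by 3' RNA-seq. The authors used BRBseqTools for demultiplexing and trimming and STAR 2.7.8a for mapping to TAIR10 (Araport11 annotation), retained uniquely placed reads, and deposited counts of unique molecular identifiers per gene and library on the sense strand, without normalization. Low counts carry large counting error, and reads of near-identical copies are lost or misassigned.

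The members were found in the raw counts by the limits given above. The members, the gene lists and the tests were chosen with earlier results of these data known. All genes were fitted with edgeR 4.0.16 in R 4.3.3 (quasi-likelihood test, TMM, filterByExpr with its defaults), and p-values were adjusted by Benjamini-Hochberg over 15649 genes. P-values set the difference between genotypes against the spread between the 4 replicates of a genotype. Symbols, positions and promoters came from RefSeq TAIR10.1, in which all 37051 nuclear ids matched. Relatives were the best BLAST 2.17.0 protein match outside the list (e-value under 1e-10 over at least 0.5 of the member). Named genes are the 12 most abundant members, members beside or related to another member, members at 0 in *ubp5*, called neighbours, relatives of the named members, and ids at the limits. Other members and relatives were named after their values were seen. Figures were drawn with Python 3.11.15. Alternatives were other limits, depth scaling, DESeq2 1.42.0, its size factors in edgeR, no filter, the replicate number as a block, other windows, matches and motifs, and leaving out each library. Neighbours in chromosome order, P1BS, the scaled opposite pattern and members without shared 3' ends were added after seeing the data. So were the spacing to same-strand genes upstream and the view of the ids around AT1G23970.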

Additional observations from a re-analysis of the deposited data

Results flagged for a closer look

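In 127 groups of 4 values (members in Col-0, called neighbours, called relatives, *UBP5* and marker sums), 12 had 1 library far from the other 3, that is, with a gap over 0.829 of the group's range. For independent groups of normally spread values, chance gives about 1 in 20 such groups. Most values here are low counts chosen by the limits, so 12 of 127 cannot be set against that rate. Of the 12 values, 5 belonged to Col-0 replicate 1. These were *SPX3* at 43.6 CPM (the others 2.92 to 5.05), its relative *SPX1* at 257 CPM (48.0 to 70.7), AT3G04040 at 7.20 CPM (1.94 to 2.34), the neighbour AT1G76955 at 26.1 CPM (9.87 to 11.3) and, on the low side, *DRIP1* at 3.79 CPM (7.68 to 8.34). Col-0 replicate 3 was low for the 2 members AT5G05060 at 19.7 CPM (47.8 to 51.5) and AT1G23970 at 1.83 CPM (7.34 to 8.34). Col-0 replicate 2 was high for AT4G28070 at 7.00 CPM (2.67 to 3.03) and AT1G24210 at 3.50 CPM (2.19 to 2.34), and Col-0 replicate 4 for AT1G76720 at 4.00 CPM (1.46 to 1.89). In *ubp5*, replicate 3 was low for AT1G76955 at 31.9 CPM (42.9 to 43.9), and replicate 4 alone had a pollen marker count, at 0.455 CPM.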

How the results depend on the processing

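The number of members followed the limits: 106 ids with at least 3 and 14 with at least 10 counts in each Col-0 library, 4 with no and 163 with at most 8 *ubp5* counts, 27 after depth scaling, and 65 without shared 3' ends. Leaving out 1 library gave 79 to 121 ids, as an unchanged limit over fewer libraries is easier to meet. Over all genes 459 were called lower and 299 higher. Leaving out 1 library gave 402 to 493 lower and 249 to 465 higher, the last without Col-0 replicate 1. Among neighbours, 9 to 14 were called lower under the alternative fits, with 6 for 1 and 26 for 5 neighbours a side, and 5 to 10 higher when leaving out 1 library. Among relatives 4 to 6 were called lower, and leaving out 1 library gave 0 to 2 higher. Marker calls were 0 by edgeR (2 with DESeq2, 2 without a filter, 0 to 1 when leaving out 1 library). The shorter repeat GAGAGA was found in 11 members (15.9%, against 20.9% of all promoters), and the telobox core AACCCTA in 1. Same-numbered libraries did not deviate together (r −0.12 to 0.03 over genes). The replicate block gave 396 lower and 269 higher over all genes, 9 and 6 neighbours, and 4 and 0 relatives. Of 276 values of 23 single genes under alternatives, 242 kept their call, 34 in 6 genes lost it, and 0 changed direction. AT5G14940 and *ASN1* also lost their calls with DESeq2 and with the replicate block, and *KNAT1* and *LTP4* with the block. Depth limits the list: a member at 0 counts in *ubp5* is bounded only to 4.52-fold to 12.8-fold.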

Other observations

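The 21 ids of the opposite pattern, with at least 4 counts in every *ubp5* library and at most 4 summed over Col-0, had 150 to 301 counts together in each *ubp5* library and 8 to 18 in each Col-0 library. Leaving out 1 library gave 22 to 38 ids.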
